A study of Drosophila melanogaster with 2 samples.

Results

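CBP peaks that lay in neighbouring pairs were described from a genome-wide binding map of early Drosophila melanogaster embryos. Peaks of the main chromosome arms (2L, 2R, 3L, 3R, 4 and X) were joined when the next peak began within 5000 bp of the end of the one before it. Groups of exactly 2 peaks were kept as pairs, so the members were selected on the measured positions of the called peaks. The rule gave 140 pairs, which hold 280 of the 1326 peaks on the arms (21.1%) and of the 1347 peaks in all. The other arm peaks were 213 in clusters of 3 or more, 546 single peaks with another peak within 50 kb, and 287 single peaks with none.

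The data came from chromatin immunoprecipitation followed by sequencing (ChIP-seq), with 1 ChIP sample and 1 chromatin input sample. Both were untreated whole embryos collected 0 to 4 h after egg laying, fixed with formaldehyde, and the ChIP used an antibody labelled rbCBP. The labels name iso1 (y; bw cn sp) or transgenic flies as the stock and do not say which gave these embryos. A pooled collection of this kind mixes stages and all cell types of the embryo, so a pair does not show that both peaks were bound in the same cell.

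CBP, encoded by nejire in flies, is a transcriptional co-activator that acetylates histones. It does not read DNA sequence itself, and DNA-binding factors, among them patterning factors of the early embryo, bring it to enhancers and promoters. Many developmental genes of the fly are controlled by more than 1 enhancer, and an enhancer may lie close to the promoter it serves or to another enhancer. Peaks were not assigned to genes, because the gene table at hand is of another genome release than the peak list. Each pair is therefore named by its position on BDGP5, counted from 1. Where the widths or scores of both partners stand together, that of the partner at the lower coordinate comes first.

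Only peak positions and the authors' score per peak were available, with 1 peak list and no replicate, so no value has a replicate error. Read depth is unknown. The scale of the score is not stated in the file, and a ratio of scores is a ratio of these values, not a fold difference in binding. The lowest listed score was 50.02 and the median of the list was 68.22, so a partner below that lower limit would not be seen. Because gaps, widths and scores all come from the peak call that chose the pairs, they are described without tests. Intervals are 95% intervals for counting peaks or pairs in this list and do not cover the spread between embryo collections. Those over single peaks treat the partners of a pair as independent.

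Many partners lay within 500 bp of each other, and the rest were spread out to the joining distance. Gaps, measured from edge to edge, ran from 11 to 4985 bp, with a median of 953.5 bp (594 to 1509) and quartiles of 309 and 2838 bp. A gap of up to 500 bp was found in 53 pairs (37.9%, exact binomial interval 29.8 to 46.4), called close pairs here. The other 87 pairs, with gaps from 534 bp, are called spaced pairs. Within the first 500 bp, 12 gaps lay up to 100 bp, 11 from 100 to 200 bp, 11 from 200 to 300 bp, 13 from 300 to 400 bp and 6 from 400 to 500 bp. The next 500 bp held 17 gaps, fewer than the 53 of the first 500 bp. Beyond it, 22 gaps lay between 1000 and 2000 bp, 14 between 2000 and 3000 bp, 23 between 3000 and 4000 bp and 11 between 4000 and 5000 bp.

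**Figure D1:**
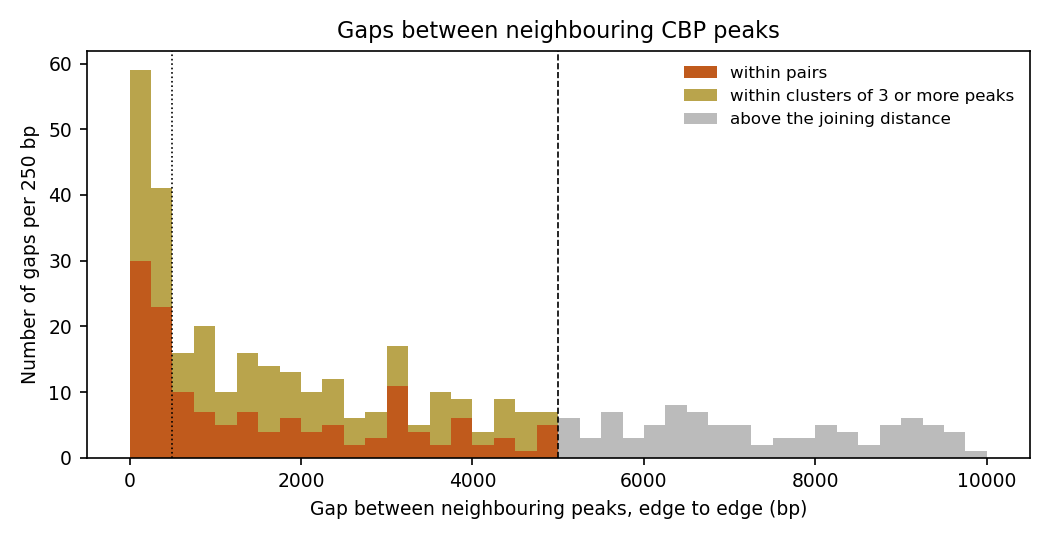
Number of gaps between neighbouring CBP peaks (vertical axis) per 250 bp of gap length (horizontal axis, bp), stacked by whether the gap lies within a pair, within a cluster of 3 or more peaks, or above the joining distance. The dotted line marks 500 bp and the dashed line 5000 bp. The tallest bars lie left of 500 bp, where pairs hold 53 of the 100 gaps.

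The largest gaps among the pairs were 4985, 4870, 4869, 4796 and 4756 bp. Just outside the joining distance, the smallest gaps were 5105, 5140, 5144, 5166 and 5166 bp, so the limit of 5000 bp fell within a run of gaps of similar length. Between 5000 and 10000 bp there were 89 further gaps. The boundary of 500 bp fell in a small break, with 484 bp as the longest gap of a close pair and 534 bp as the shortest of a spaced one. Of all 292 gaps of up to 5000 bp between neighbouring arm peaks, the 140 pairs account for 47.9% (42.1 to 53.8). Of the 100 gaps of up to 500 bp they account for 53.0% (42.8 to 63.1).

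The closest partners were separated by less than 40 bp. On 2L from 825396 to 826804, peaks of 843 and 555 bp with scores of 77.71 and 59.79 were 11 bp apart. On 3L from 17548063 to 17551021, a 687 bp peak scoring 52.7 lay 13 bp from a 2259 bp peak scoring 126.46. The gap was 24 bp on 2L from 1118695 to 1120301 (scores 94.72 and 79.97). It was 31 bp on 2R from 9318183 to 9319421 (61.23 and 77.59) and 37 bp on 3L from 20368497 to 20369823 (58.05 and 61.87). These stretches were listed as separate peaks, although the gap is far shorter than either partner. In 50 of the 53 close pairs the gap was shorter than the narrower partner, against 2 of the 87 spaced pairs. This contrast largely follows from the limit of 500 bp that defines the classes, as the first quartile of the widths of paired peaks was 496 bp. The list holds no read coverage, so the signal inside a gap is not known, and whether a close pair is 1 bound region listed in 2 pieces was not tested.

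The partners had similar summed widths in close and in spaced pairs, so the stretch from outer edge to outer edge and the part of it under the peaks follow from the gap that defines the classes. The outer edges of close pairs spanned a median of 1531 bp (1426 to 1686), and the peaks covered a median of 85.1% of that span. Spaced pairs spanned a median of 3904 bp (3312 to 4270), of which the peaks covered 39.4%. Between peak midpoints the median distance was 877.5 bp (802 to 1012) in close pairs and 2998.5 bp (2529 to 3630.5) in spaced pairs. The summed width of the partners was alike, with medians of 1354 bp (1214 to 1481) in close pairs and 1305 bp (1177 to 1458) in spaced pairs. Across the 140 pairs, Spearman's rho of gap with summed width was 0.03.

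**Figure D2:**
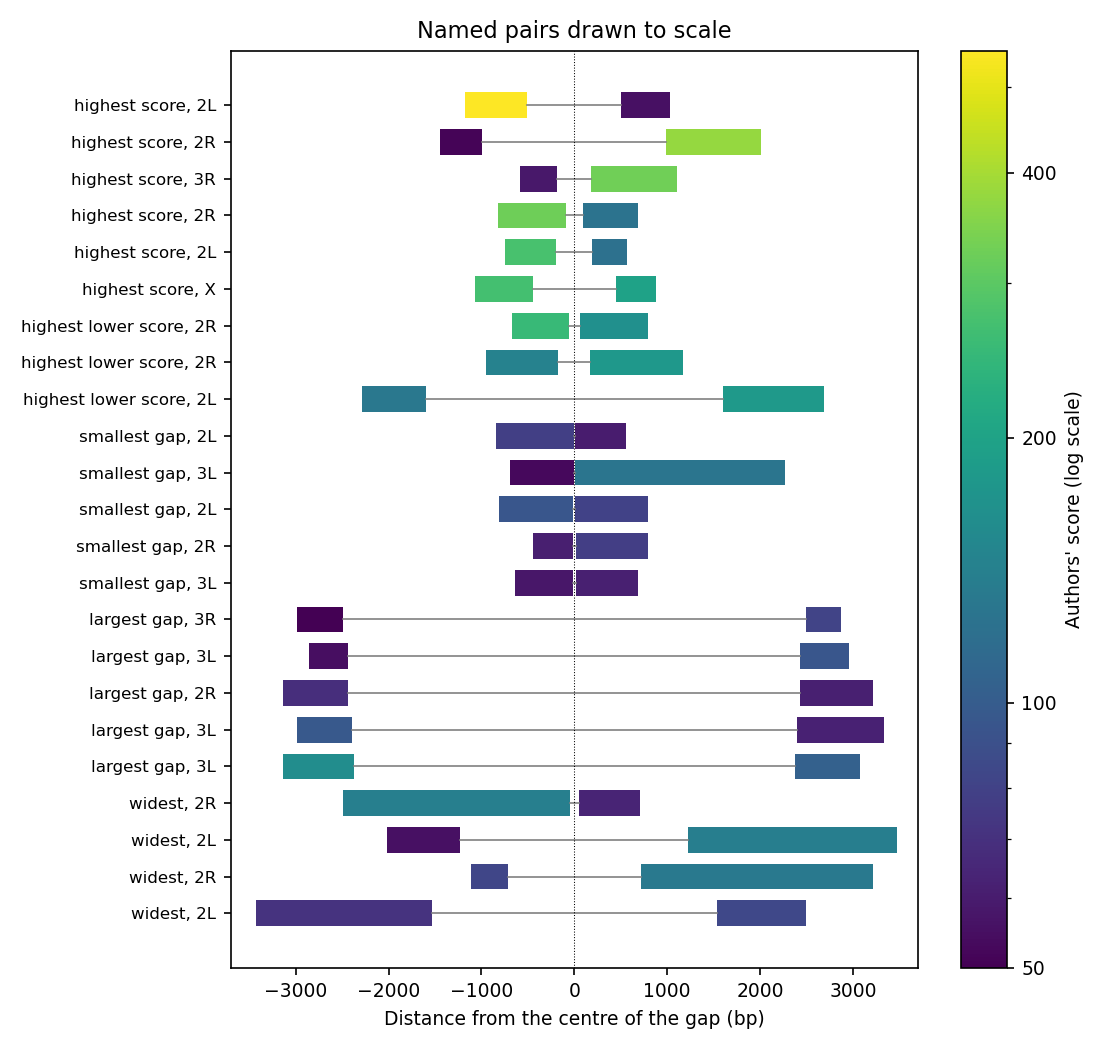
The named pairs with the highest scores, the highest lower-partner scores, the smallest and largest gaps and the longest summed widths, drawn to scale as distance from the centre of the gap (bp). Each bar is a peak coloured by the authors' score on a log scale, each row is a pair labelled by its reason and arm, and a pair chosen for several reasons is drawn once. Gaps range from 11 bp in the smallest-gap rows to 4985 bp in the largest-gap rows.

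The partners of a pair commonly had unequal scores. The higher partner had a median score of 89.6 (83.1 to 105) and the lower partner a median of 58.4 (55.9 to 61.3), an order that choosing the higher value per pair fixes. Taking the lower of 2 listed scores tends by itself to give a value below the median of the list, and taking the higher a value above it. The first quartile of the arm peaks was 56.94 and the third was 92.09. The lower partner scored under 60 in 78 pairs (55.7%, 47.1 to 64.1), and both partners did in 18 pairs. The higher partner reached a score of 100 in 59 pairs (42.1%, 33.9 to 50.8). In 49 of these pairs the lower partner stayed under 100, and in 10 pairs both reached it. The shares of all arm peaks under 60 and of at least 100 were not counted, so these counts are not read as a trait of pairs. The ratio of the higher to the lower score had a median of 1.43 (1.32 to 1.54) and quartiles of 1.15 and 1.79. It was at least 2 in 31 pairs (22.1%), at least 3 in 10 pairs and under 1.1 in 23 pairs (16.4%).

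The score of a peak told little about the score of its partner. Over the 140 pairs, Spearman's rho between the left and the right partner's score was 0.03, and it was 0.08 between their widths. Over the 53 close pairs rho of the scores was 0.21, and over the 87 spaced pairs it was -0.09. Pearson's correlation of the log2 scores was 0.05 over all pairs, 0.31 over close pairs and -0.09 over spaced pairs. All points come from the same library and the same lower limit of score, and these values are given as a description only. The higher score stood on the left (lower coordinates) in 76 pairs and on the right in 64, a share of 54.3% (45.7 to 62.7) whose interval includes 50%.

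The median ratio of the scores was lower in close pairs than in spaced pairs. It was 1.27 (1.18 to 1.40) in close pairs and 1.52 (1.41 to 1.59) in spaced pairs. The lower partner had nearly the same median in both, 58.4 (53.9 to 63.6) in close pairs and 58.4 (55.6 to 61.6) in spaced pairs. The higher partner had a median of 77.7 (72.1 to 96.1) in close pairs and 97.2 (84.0 to 115) in spaced pairs, and these intervals overlap. A higher partner of at least 100 was found in 17 of 53 close pairs (32.1%, 19.9 to 46.3) and in 42 of 87 spaced pairs (48.3%, 37.4 to 59.2), again with overlapping intervals. Both partners reached 100 in 6 close pairs and in 4 spaced pairs. The difference between the scores of the partners had a median of 16.4 (12.8 to 29.1) in close pairs and 34.6 (27.1 to 43.3) in spaced pairs.

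This contrast had limits. The ratio did not change steadily with the gap: rho was 0.18 over all pairs, 0.02 within the close pairs and 0.00 within the spaced pairs. With the limit set at 1000 bp the median was 1.33 (1.24 to 1.53) below and 1.51 (1.39 to 1.57) above it. With 250 bp it was 1.25 (1.17 to 1.53) below and 1.47 (1.36 to 1.55) above, so at these limits the intervals overlap. Adjacent peaks inside clusters of 3 or more did not show the same order of medians, with a median ratio of 1.51 (1.35 to 1.78) over 47 gaps of up to 500 bp and 1.37 (1.27 to 1.53) over 105 longer gaps, and these intervals overlap. Over all 152 adjacent peaks of these larger clusters the median ratio was 1.43 (1.33 to 1.53), the value found for all pairs. For 277 neighbours that were both single and 5 to 50 kb apart it was 1.29 (1.24 to 1.38). For 391 such neighbours more than 50 kb apart it was 1.31 (1.27 to 1.36). Both intervals overlap those of all pairs and of close pairs, and both lie below that of spaced pairs.

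**Figure D3:**
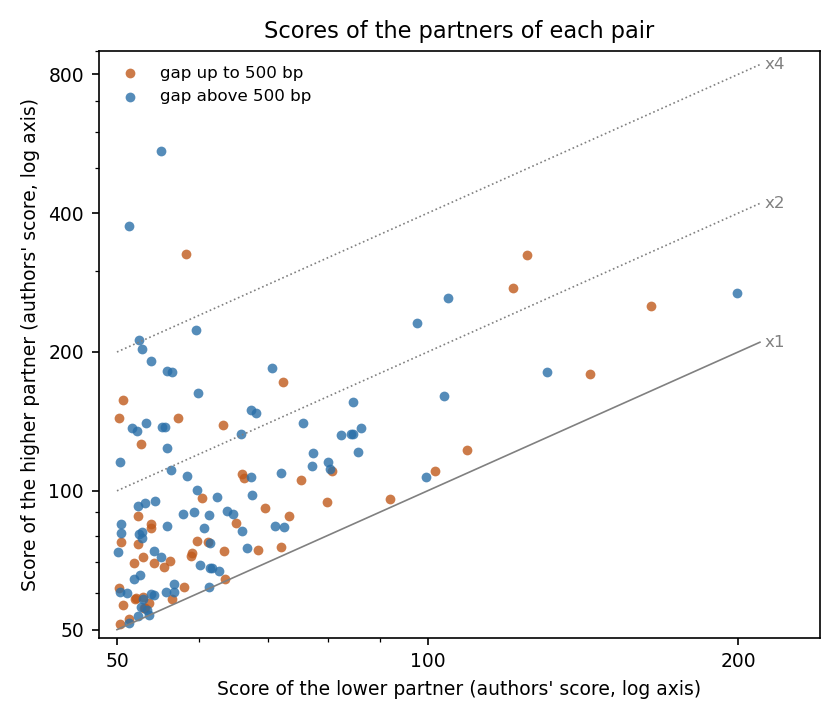
Authors' score of the higher partner (vertical, log axis) against that of the lower partner (horizontal, log axis) for the 140 pairs, with close pairs (gap up to 500 bp) and spaced pairs (gap above 500 bp) in different colours. The lines mark equal scores and ratios of 2 and 4. Most points sit at the left edge, where 78 lower partners score under 60, and 3 pairs stand above a ratio of 5.

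The 3 most uneven pairs held the 3 highest-scoring paired peaks. The pair on 2L from 8675339 to 8677548 held the highest-scoring peak of the arms, at 546.27 over 674 bp, with a partner of 521 bp scoring 55.18 at a distance of 1015 bp. Its ratio of 9.90 was the largest of the 140 pairs, and the nearest peak beyond the pair lay 131863 bp away. On 2R from 15546546 to 15550001, the scores were 51.33 and 375.19 at a distance of 1979 bp, a ratio of 7.31. The close pair on 3R from 24683937 to 24685622 joined scores of 58.39 and 326 across 368 bp, a ratio of 5.58. The next were spaced pairs, on 2R from 14187251 to 14192030 (scores 212.27 and 52.49, ratio 4.04) and on 2L from 517967 to 523821 (202.96 and 52.93, ratio 3.83). In each of these 5 pairs the weaker partner scored under 60, which choosing pairs by the largest ratio favours.

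In the 6 pairs with the highest lower-partner scores both peaks were strong, which that choice fixes. On X from 3634725 to 3636668, scores of 268.05 and 199.42 stood 892 bp apart, the highest lower-partner score of all pairs. On 2R from 5964492 to 5966000, peaks of 736 and 591 bp scoring 324.82 and 124.95 were 182 bp apart. The pair on 2L from 6088213 to 6089526 had scores of 274.99 and 121.04 across 386 bp. On 2R the pair from 9076578 to 9078044 had scores of 251.69 and 164.64 across 113 bp, and that from 6372584 to 6374710 had 143.56 and 179.58 across 344 bp. The pair on 2L from 19333728 to 19338710, with 130.45 and 181.03, had a gap of 3192 bp. Of these 6 pairs, 4 were close pairs, and none held more than 1 of the 20 highest-scoring arm peaks. In all, 7 of those 20 peaks were in pairs (35.0%, 15.4 to 59.2), as were 25 of the highest 100 (interval 16.9 to 34.7%), beside 21.1% of all arm peaks.

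The 5 most even pairs were all weak. Choosing pairs by the smallest ratio favours this, because weak scores lie close together, from the lowest of 50.02 to the list median of 68.22. On 3L from 20688453 to 20690872 the scores were 53.87 and 53.65, a ratio of 1.00. On X from 9046190 to 9050152 they were 51.33 and 51.73, on 2R from 17406167 to 17411877 they were 61.96 and 61.39, and on 3R from 17200829 to 17202898 they were 64.47 and 63.63. The fifth, on 2L from 15038344 to 15042575, had 52.38 and 53.47. All 10 of these peaks scored below the list median of 68.22. The 23 pairs with a ratio under 1.1 were not all weak. The pair on X from 17723303 to 17725137 was among them, with scores of 110.57 and 101.63. Of the 140 pairs, 37 had both partners at or above that median, 71 had 1 partner at or above it and 32 had none.

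The higher-scoring partner was more often the wider one. It was wider in 89 of 140 pairs (63.6%, 55.0 to 71.5), with medians of 705 bp (665 to 800) for the higher-scoring and 591.5 bp (546 to 638) for the lower-scoring partner. The count was 36 of 53 in close pairs (67.9%, 53.7 to 80.1) and 53 of 87 in spaced pairs (60.9%, 49.9 to 71.2). These intervals overlap, and that of spaced pairs includes 50%. The relation of width and score over all arm peaks was not computed, so this order is not read as particular to pairs. Across pairs, rho of the left-to-right ratio of widths with that of scores was 0.49. In 33 pairs 1 partner was wider than 1000 bp, and in 2 pairs both were. Those 2 were the spaced pair on 2R from 8664207 to 8668299 and the close pair on 3R from 25864626 to 25867385, named after their values were seen.

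The pairs with the longest summed width each held 1 very broad peak. On 2R from 10060243 to 10063441, peaks of 2450 and 657 bp scoring 139.06 and 63.3 were 92 bp apart. On 2L from 19571827 to 19577308 the widths were 786 and 2242 bp, with scores of 55.33 and 137.86. The pair on 3L from 17548063, described above for its gap of 13 bp, followed with 2946 bp. On 2R from 11016188 to 11020515, a 393 bp peak scoring 82.45 lay 1440 bp from a 2495 bp peak scoring 132.29, the most unequal widths of any pair at a ratio of 6.35. On 2L from 3464477 to 3470399 the 1894 bp peak scored 71.1 and its 965 bp partner 83.98, so there the narrower peak scored higher.

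Paired peaks as a whole were intermediate between single peaks and peaks of larger clusters. They covered 197505 bp, or 21.6% of the 913296 bp under all arm peaks. Their median width was 648.5 bp (621 to 679), against 719 bp (681 to 772) in clusters of 3 or more and 582 bp (556 to 605) for the 833 single peaks. Their median score was 69.6 (65.7 to 74.2), against 79.2 (73.3 to 88.9) in clusters of 3 or more and 66.0 (64.7 to 67.7) for single peaks, with overlapping intervals on both sides. Close and spaced pairs had similar medians, 635.5 bp (562 to 705) and 651.5 bp (619 to 685) for width and 69.0 (61.5 to 74.2) and 70.9 (64.8 to 80.5) for score.

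**Figure D4:**
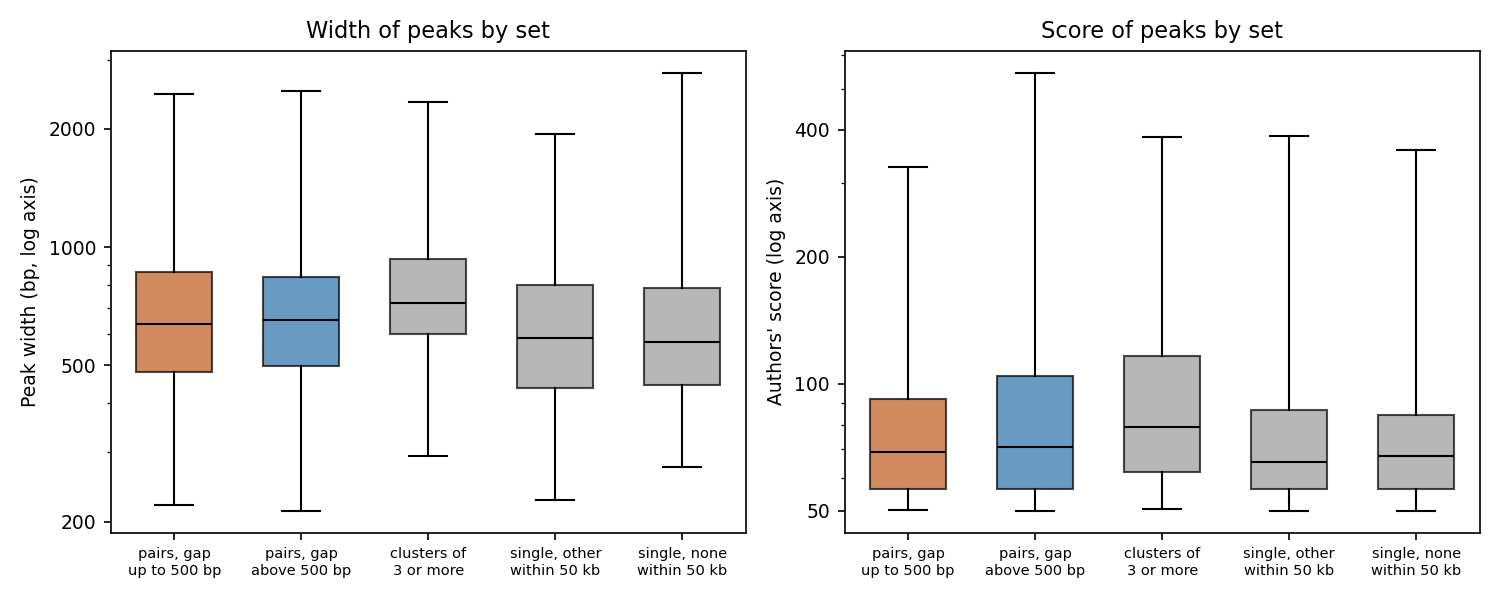
Width (left, bp, log axis) and authors' score (right, log axis) of peaks in close pairs, spaced pairs, clusters of 3 or more, single peaks with another within 50 kb and single peaks with none. Boxes show the quartiles and median and whiskers the full range. The median width is 635.5 and 651.5 bp in the sets of pairs and 719 bp in larger clusters.

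At the joining distance of 5000 bp, pairs took a similar share of weak and strong peaks, whereas larger clusters took a larger share of the strong ones. The arm peaks were divided by score into 4 groups of 331 or 332 peaks, at scores of 56.94, 68.1 and 92.09. Pairs held 23.0% (18.5 to 27.9) of the lowest group, 17.2% (13.3 to 21.7) of the second, 20.5% (16.3 to 25.3) of the third and 23.8% (19.3 to 28.7) of the highest group. These intervals all overlap. Clusters of 3 or more held 9.37% (6.45 to 13.0) of the lowest group, 13.6% (10.1 to 17.7) of the second, 15.4% (11.7 to 19.8) of the third and 25.9% (21.3 to 31.0) of the highest group. Between the lowest and the highest group the intervals overlap for pairs and are apart for larger clusters. Joined at 2000 bp, pairs held 17.5% (13.6 to 22.1) of the lowest and 22.6% (18.2 to 27.5) of the highest group. Joined at 10000 bp, they held 21.1% (16.9 to 25.9) and 26.5% (21.8 to 31.6). Both settings gave the higher share in the highest group, with overlapping intervals.

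**Figure D5:**
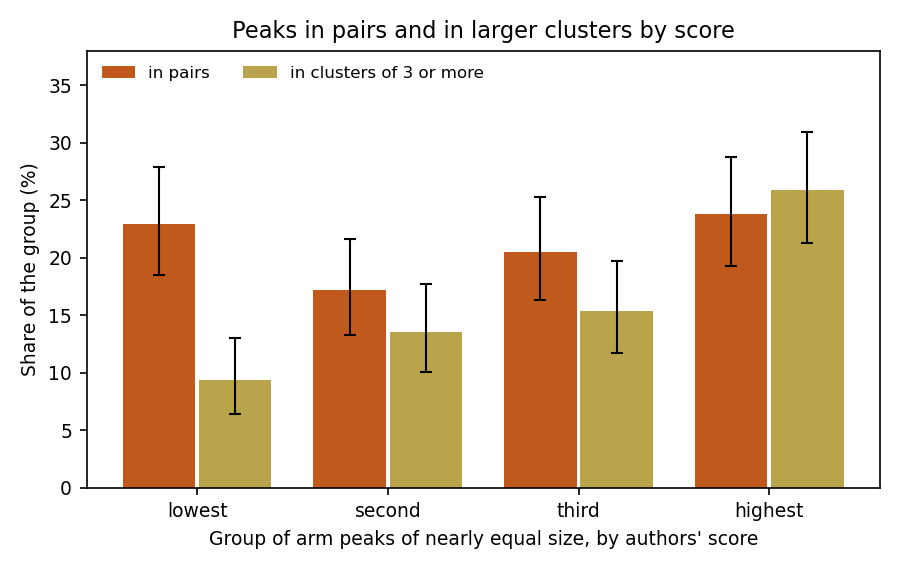
Share of each of the 4 score groups of arm peaks (horizontal axis) that lies in pairs and in clusters of 3 or more (vertical axis, %), with exact binomial 95% intervals as error bars. Pairs hold 17.2 to 23.8% of the groups, while larger clusters hold 9.37% of the lowest and 25.9% of the highest.

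Pairs occurred on 5 of the 6 arms. Arm 2R had 36 pairs, 3R had 32, 3L had 27, 2L had 26 and X had 19. Chromosome 4, with 3 peaks in all, had none. Of the 274 peaks of 2R, 26.3% (21.2 to 31.9) were paired, the highest share of an arm. Arm 3R had the most peaks, 361, and the lowest share among the arms with pairs, 17.7% (13.9 to 22.1), and these intervals overlap by little. The share was 21.2% for 3L, 21.1% for 2L and 20.3% for X. Close pairs were 16 of 36 on 2R (44.4%), 11 of 27 on 3L (40.7%), 13 of 32 on 3R (40.6%), 8 of 26 on 2L (30.8%) and 5 of 19 on X (26.3%, 9.15 to 51.2), with overlapping intervals. Median gaps were 623 bp on 2R (329 to 1979), 704.5 bp on 3R, 858 bp on 3L, 1184 bp on X and 1872.5 bp on 2L (386 to 2834). The narrowest paired peaks were those of 3L, with a median width of 557 bp (496 to 653), and of X, with 585 bp (520 to 680). The median was 631.5 bp (559 to 688) for 3R, 706.5 bp (647 to 780) for 2R and 709.5 bp (625 to 805) for 2L, and all of these intervals overlap.

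Most pairs were not far from further CBP peaks, but some stood alone. The nearest peak beyond the pair lay at a median of 24571.5 bp (21060 to 30358), and by the rule always above 5000 bp. It was within 10 kb for 26 pairs, within 50 kb for 99 (70.7%) and within 100 kb for 124, which leaves 16 pairs with none within 100 kb. Of the 833 single peaks, 546 had another peak within 50 kb, so this nearness is not read as particular to pairs. The median distance from a pair to the nearest other peak was 24122 bp (15654 to 41020) for close pairs and 26905 bp (20167 to 32461) for spaced pairs. For 119 pairs (85.0%) that nearest peak was single, for 11 it belonged to another pair and for 10 to a larger cluster. Most groups of peaks on the arms were single peaks too, 833 beside 140 pairs and 213 peaks in larger clusters. Their share of all groups was not computed, so these counts are not read as a trait of pairs. The most isolated pair, on 3R from 3300213 to 3301875 with scores of 111.07 and 56.4, was 286887 bp from the next peak. That on 2L from 4820367 to 4824294 (scores 66.06 and 81.96) was 228112 bp away from any other, and that on X from 8303740 to 8307202 (84.61 and 50.48) was 194222 bp away. All 3 were spaced pairs with gaps of 594, 2834 and 2131 bp.

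At the other end, some pairs narrowly missed being joined to a further peak. On 2L the pair from 18880943 to 18885034 (scores 68.13 and 61.6) had another peak 5140 bp away, and that from 15477878 to 15480304 (53.39 and 140.61) had one at 5166 bp. The pair on 3R from 15140569 to 15146433 had scores of 50.42 and 80.88 and the largest gap within a pair, 4985 bp, with another peak at 5166 bp. The next widest gap was that of 4870 bp on 3L from 3782485 to 3788304, with scores of 54.43 and 94.9. The pair on 2R from 6725691 to 6732035 followed with scores of 68.18 and 61.86, before 2 further pairs of 3L. These spanned 17637809 to 17644130 (scores 97.16 and 62.53) and 8990918 to 8997131 (scores 160.88 and 103.84). The last of these is the pair with the widest gap among the 10 in which both partners reached 100. Pairs at the middle of their class by gap, not by score, were on X and on 3R. That on X from 17723303 to 17725137 had a gap of 219 bp and scores of 110.57 and 101.63. The pair on 2R from 20551322 to 20554199 had the same gap, with scores of 50.7 and 157.67. That on 3R from 19712032 to 19715979 had a gap of 2332 bp and scores of 149.47 and 67.47.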

How the data were processed

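The authors' deposited peak list gives a sequence name, start, end and score for each peak of the ChIP sample. Peaks were called with MACS, per the file headers. Bowtie and BDGP5 are named per the submitters' processing notes. For the MACS version, its thresholds, the use of the input and any pooling of replicates, the sources used here give nothing. The score is the authors' value per deposited peak and was used only within this list. Input reads and coverage were not analysed here, and read depth is unknown.

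Starts were taken as counted from 0, as in BED files. On the 6 arms, peaks were sorted and joined at 5000 bp as described, and gap, midpoint distance, widths, scores and the distance to the next peak were computed per pair. Medians have 95% intervals from binomial order statistics, and shares have exact Clopper-Pearson intervals. The joining was checked on simulated data. Python 3.11.15, numpy 2.4.6, scipy 1.17.1, pandas 2.3.3 and matplotlib 3.10.9 were used.

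The pairs, their classes and the rule for naming pairs were chosen with earlier results of these data known. The rule names pairs by highest partner score and highest lower-partner score (6 each), and by largest and smallest ratio, smallest and largest gap and summed width (5 each). It also names the 3 most and 3 least isolated pairs and the middle gap of each class, which gave 37 distinct pairs. Genes and sequence content were not examined, as no genome or annotation of BDGP5 was used here.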

Additional observations from a re-analysis of the deposited data

How the results depend on the processing

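No paired analysis was possible because ChIP and input have a single sample each, and no replicate could be left out either. Of 49 alternative values, 40 stayed within 1.5 times the count or within the 95% interval given in the report. The 40 include the values with the 21 peaks outside the arms added, which could not change because these peaks held no pair. Keeping only peaks at or above the list median score left 59 pairs, 21 of them with a gap of up to 500 bp, with a median width of 752 bp and a median score of 103, and the filter itself lowers the counts. Of the 59, 37 were the same pairs of peaks. Joining at 2000 bp gave 122 pairs, 92 of them the same, with a median gap of 409 bp. Joining at 10000 bp gave 150 pairs, 114 of them the same, with a median gap of 1982 bp. The gap follows the joining distance by construction. At 2000 bp pairs held 17.5% of the lowest score group in place of 23.0%, and 22.6% of the highest in place of 23.8%. At 10000 bp they held 21.1% of the lowest and 26.5% of the highest. A limit of 250 bp in place of 500 bp left 30 close pairs, and the distance between midpoints had a median of 1647.75 bp in place of a gap of 953.5 bp. The limits of 250 and 1000 bp for the score ratios, the omission of pairs with another peak within 10 kb and the score groups were chosen after seeing the data. Sequence content and genes at the pairs were not run. The lowest listed score was 50.02, and how many pairs a lower score threshold of the authors would give was not tested.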
